A study of Mus musculus with 6 samples.

Results

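The epithelial oxidases and the inducible nitric oxide synthase are a set of 10 genes among the 52550 genes listed in each file, of which 52403 had a symbol. The set holds the dual oxidases *Duox1* and *Duox2*, their maturation factors *Duoxa1* and *Duoxa2*, the colonic NADPH oxidase *Nox1* with its organizer *Noxo1* and its activator *Noxa1*, the oxidase *Nox4*, the shared membrane subunit *Cyba*, and *Nos2*. They were picked by name, after differences between the same genotypes had been seen in these data, so their differences between genotypes are given as a description. Where a member is said to pass the threshold of the fit over all genes, this is part of that description and supports nothing. Of the 10 genes, 9 had a value above 0 in at least 1 sample and 1, *Nox4*, was listed at 0 in all 6.

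RNA-seq was performed on colon epithelium from mice of the C57BL/6 strain, 3 of them *Zfp90*ΔIEC and 3 *Zfp90* fl/fl. *Zfp90*ΔIEC mice lack *Zfp90* in cells that express Villin-cre, which is active in intestinal epithelium, and *Zfp90* fl/fl littermates carry the floxed alleles. All 6 mice received azoxymethane (AOM, 10 mg/kg), a colon carcinogen, and 5 days later began 3 cycles of dextran sulfate sodium (DSS), which injures the colonic lining, with 7 days of DSS and 14 days of water each. They were killed on day 80, so no untreated mouse is part of the comparison. The labels give 2% DSS and an age of 6 to 8 weeks, whereas the methods give a different DSS concentration and only the upper age. The genotype field of 2 *Zfp90*ΔIEC samples names another gene number, and these were grouped by their titles. The mice were housed apart by genotype after weaning, so cage and genotype cannot be told apart.

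NADPH oxidases move electrons across a membrane onto oxygen. NOX1 makes superoxide and needs an organizer, an activator and the small membrane subunit encoded by *Cyba*, while DUOX enzymes release hydrogen peroxide and leave the endoplasmic reticulum only with a DUOXA partner. Inducible nitric oxide synthase makes nitric oxide from arginine. In the colon these genes are known for their response to microbes and cytokines.

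The deposited values are FPKM (fragments per kilobase per M mapped), a fragment count scaled to transcript length and library size, which allows levels to be compared between genes. The files give no depth, and steps between low values gave an estimate of 25.85 M to 28.8 M fragments per sample. Correlations between pairs of samples across genes were 0.980 to 0.990. The epithelial markers were high, with a summed level of 7380 to 8360 FPKM in *Zfp90* fl/fl and 7150 to 7930 FPKM in *Zfp90*ΔIEC samples, and stromal and endothelial markers summed to at most 2.06 FPKM in any sample. Levels are given as 3 *Zfp90* fl/fl values against 3 *Zfp90*ΔIEC values, replicates 1 to 3 in that order. The deleted gene, *Zfp90*, was at 0.630, 0.490 and 0.569 FPKM against 0.0846, 0.195 and 0.166 FPKM. A log2 fold change below is *Zfp90*ΔIEC minus *Zfp90* fl/fl on log2(FPKM + 1), which understates the change of genes below a few FPKM. It comes from limma, fitted over 11564 genes that reached 1 FPKM in 3 samples or more.

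*Duox2*, *Duoxa2*, *Duoxa1* and *Duox1* lie side by side on chromosome 2, from 122279247 to 122347972 in GRCm38. *Duox2* (122279247 to 122298449, minus strand) and *Duoxa2* (122298900 to 122302885, plus strand) start back to back with 450 bases between them, and *Duoxa1* (122302191 to 122313730, minus strand) and *Duox1* (122315672 to 122347972, plus strand) likewise with 1941 bases between them. *Duoxa2* and *Duoxa1* are on opposite strands and overlap by 695 bases at their ends, of which 682 are exonic in both. The 250 bases before the RefSeq start of *Duoxa2* (GRCm38.p6, chr2:122298650-122298899, plus strand) lie wholly in the gap between *Duox2* and *Duoxa2*, and are shown because this gap precedes both genes of the pair with the highest levels in the cluster. Capitals mark the only match found in it to the letters searched.
Duoxa2 upstream: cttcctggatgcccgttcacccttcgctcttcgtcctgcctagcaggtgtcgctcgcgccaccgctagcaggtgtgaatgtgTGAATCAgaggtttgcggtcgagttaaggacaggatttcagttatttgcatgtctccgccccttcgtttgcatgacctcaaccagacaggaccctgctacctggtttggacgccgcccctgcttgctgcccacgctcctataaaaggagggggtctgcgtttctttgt
The match is to the AP-1 letters TGANTCA, found on both strands from position -168 before the start, and it was present in 6.7% of 32851 promoter windows of the same length. Of the 10 genes, 9 had a window in the table. Other letters searched on both strands were a STAT site (TTCNNNGAA, in 7.0% of all windows), a GATA site (AGATAA, 10.0%) and a kappaB site by its consensus (7.3%). Matches were found for *Nox1* (kappaB), *Noxa1* (kappaB and GATA), *Nox4* (STAT) and *Cyba* (GATA), and none of these letters was in the windows of *Duox1*, *Duox2*, *Duoxa1* and *Noxo1*. The RefSeq start used for a window can differ from the gene start given by position. The *Nox1* window (chrX:134111855-134112104) lies inside the *Nox1* positions given below. Most of the *Duox2* window (chr2:122298228-122298477) lies inside the *Duox2* positions given above, so it covers little of the gap before that gene. The *Nox4* window (chr7:87246399-87246648) lies inside *Nox4* (87246096 to 87398710). A match is a description of letters and is not evidence of binding.

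All 9 genes with a value were lower in every *Zfp90*ΔIEC sample than in any *Zfp90* fl/fl sample, by FPKM. Among all 11564 genes tested, which include 7 of these 9, 12.6% were lower without overlap. That share does not cover genes below the filter. Of the members, 7 passed the filter on low values and 2, *Duox1* and *Duoxa1*, did not. limma with Benjamini-Hochberg adjustment called 2 of the 7, *Duox2* and *Nos2*, both lower, where 0.199% of all genes tested were called and 0.130% were called lower. The members were picked with this contrast in view, so nothing is read from these counts. In bulk tissue, fewer cells of a type and less RNA per cell cannot be told apart.

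**Figure D1:**
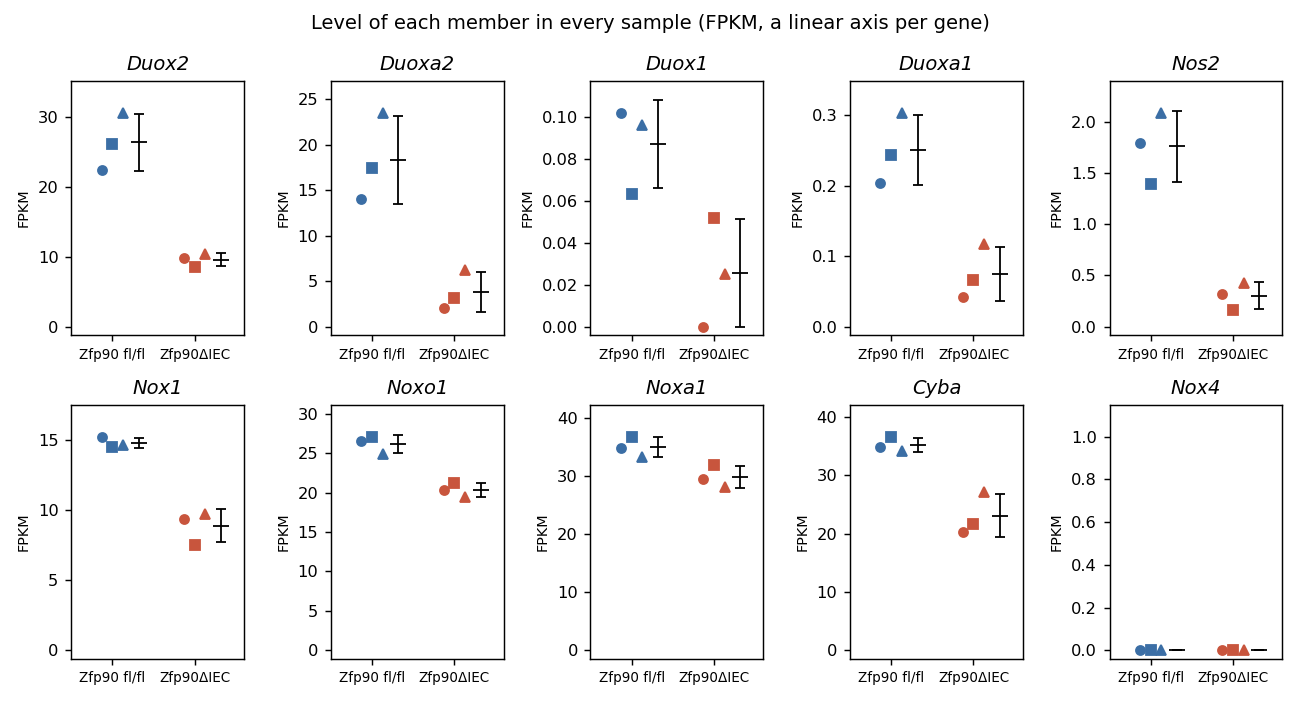
Level of the 10 genes in each of the 6 samples, in FPKM on a linear axis of its own for every gene. Circles, squares and triangles are replicates 1, 2 and 3, and the black dash with its bar is the mean and SD of 3 samples. For 9 genes no *Zfp90*ΔIEC point reaches the lowest *Zfp90* fl/fl point, and *Nox4* is at 0.

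*Duox2*, the main dual oxidase of the colon, was measured at 22.5, 26.1 and 30.6 FPKM against 9.80, 8.58 and 10.4 FPKM. Its mean was 26.4 ± 4.05 FPKM (SD, n = 3) against 9.60 ± 0.935 FPKM (SD, n = 3), with a log2 fold change of -1.36 (standard error 0.119). The highest *Zfp90*ΔIEC sample, at 10.4 FPKM, was below the lowest *Zfp90* fl/fl sample, at 22.5 FPKM. Without *Zfp90* fl/fl replicate 2, *Duox2* no longer passed the threshold, at a log2 fold change of -1.37.

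*Duoxa2*, the partner of *Duox2* that lets it reach the cell surface, was at 14.0, 17.5 and 23.5 FPKM against 2.01, 3.19 and 6.27 FPKM. The log2 fold change was -2.07 (standard error 0.326), the most negative among the 7 genes that passed the filter. By mean FPKM, *Duoxa2* was at 20.9% of its *Zfp90* fl/fl mean, and *Nos2* was lower on that scale, at 17.0%. Both genotypes were spread widely around their means, 18.3 ± 4.80 and 3.82 ± 2.20 FPKM (SD, n = 3 each), with replicate 3 highest in both. *Duoxa2* did not pass the threshold with all samples. Among fits that left a sample out, it passed only without *Zfp90*ΔIEC replicate 3, the sample nearest to the *Zfp90* fl/fl values. There its log2 fold change was -2.41 and 17 of all genes tested were called, and nothing is read from this pass.

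*Duox1*, the other dual oxidase, was near the lower limit of what these libraries measure. It was at 0.102, 0.0633 and 0.0962 FPKM in *Zfp90* fl/fl mice, an estimated 13.9, 9.4 and 14.3 fragments. In the *Zfp90*ΔIEC samples it was listed at 0, at 0.0518 and at 0.0251 FPKM, or an estimated 0, 7.9 and 3.7 fragments. *Duoxa1*, the maturation partner named for *Duox1*, was at 0.204, 0.244 and 0.303 FPKM against 0.0415, 0.0667 and 0.117 FPKM. At these levels a few fragments set the value, and the log2 fold changes without a filter were -0.08 (standard error 0.0248) for *Duox1* and -0.22 (standard error 0.0410) for *Duoxa1*. Reads of *Duoxa1* may also come from the end of *Duoxa2* that it overlaps, since the counting is not stated to have used strand.

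*Nox1*, the superoxide-producing oxidase of colonic epithelium, was at 15.2, 14.5 and 14.6 FPKM against 9.38, 7.51 and 9.67 FPKM. Its mean was 14.8 ± 0.377 against 8.85 ± 1.17 FPKM (SD, n = 3 each), with a log2 fold change of -0.68 (standard error 0.0932). *Nox1* did not pass the threshold with all samples. Among fits that left a sample out, it passed only without *Zfp90*ΔIEC replicate 2, its lowest sample, at -0.58. In that fit 18 of all genes tested were called. *Cyba*, which encodes the membrane subunit that stabilizes NOX proteins, was at 34.9, 36.6 and 34.2 FPKM against 20.2, 21.7 and 27.2 FPKM. The *Zfp90* fl/fl samples lay close together and *Zfp90*ΔIEC replicate 3 was nearest to them, and the log2 fold change was -0.60 (standard error 0.107). *Cyba* did not pass the threshold with all samples either. Among fits that left a sample out, it passed only without that replicate, at -0.72, where 17 of all genes tested were called. Nothing is read from these passes.

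The cytosolic partners of NOX1 differed least. *Noxo1*, the organizer that recruits the activator, was at 26.5, 27.1 and 24.9 FPKM against 20.3, 21.2 and 19.4 FPKM. *Noxa1*, the activator, was at 34.8, 36.7 and 33.3 FPKM against 29.4, 31.9 and 28.1 FPKM. Their log2 fold changes were -0.35 (standard error 0.0597) and -0.22 (standard error 0.0680). For *Noxa1* the highest *Zfp90*ΔIEC sample, at 31.9 FPKM, was just below the lowest *Zfp90* fl/fl sample, at 33.3 FPKM. Exons of *Noxo1* share 2122 bases with *Tbl3*, those of *Nox1* share 399 bases with *Cstf2* and those of *Noxa1* share 50 bases with *Entpd8*, each on the other strand. As for *Duoxa1*, reads of the overlapping genes may be included in these levels, most of all for *Noxo1*, and in the ratios made from them. In GRCm38 *Nox1* is on chromosome X (134086421 to 134221956, minus strand), *Noxo1* on chromosome 17 (24696234 to 24700529, plus strand), *Noxa1* on chromosome 2 (25085667 to 25095149, minus strand) and *Cyba* on chromosome 8 (122424776 to 122432930, minus strand).

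*Nos2*, the inducible nitric oxide synthase gene on chromosome 11 (78920787 to 78960254, plus strand), was at 1.80, 1.40 and 2.09 FPKM against 0.316, 0.161 and 0.423 FPKM. The estimated fragments behind these values were 194.9, 165.3 and 247.6 against 36.3, 19.5 and 49.6. The mean was 1.76 ± 0.345 FPKM against 0.300 ± 0.131 FPKM (SD, n = 3 each), which is 17.0% of the *Zfp90* fl/fl mean, and the log2 fold change was -1.08 (standard error 0.124). *Nos2* passed the filter only through the *Zfp90* fl/fl samples, since no *Zfp90*ΔIEC sample reached 1 FPKM. It passed the threshold in the fit with all 6 samples and in none of the 6 fits that left a sample out, where its log2 fold change was furthest from 0 at -1.18. With a pseudocount of 0.1 in place of 1 the log2 fold change was -2.26, and it did not pass.

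**Figure D2:**
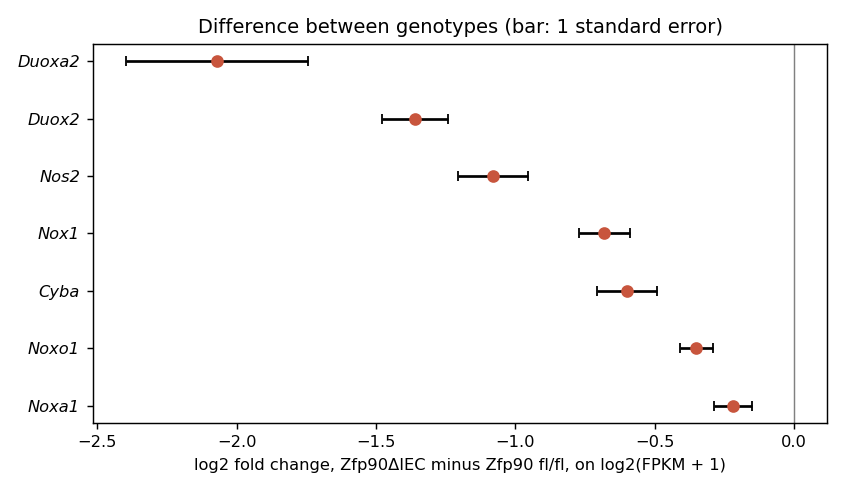
Log2 fold change of the 7 genes that passed the filter, with a bar of 1 standard error, *Zfp90*ΔIEC minus *Zfp90* fl/fl on log2(FPKM + 1). The values run from -2.07 for *Duoxa2* to -0.22 for *Noxa1*, and all 7 lie below 0.

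In the *Zfp90* fl/fl samples *Cyba* (35.2 FPKM) and *Noxa1* (34.9 FPKM) had the highest mean levels, and their samples overlapped. *Duox2* (26.4 FPKM) and *Noxo1* (26.2 FPKM) followed, also overlapping, and then *Duoxa2* (18.3 FPKM) and *Nox1* (14.8 FPKM), which overlapped too. In the *Zfp90*ΔIEC samples the order was *Noxa1* (29.8 FPKM), *Cyba* (23.1 FPKM) and *Noxo1* (20.3 FPKM), then *Duox2* (9.60 FPKM), *Nox1* (8.85 FPKM) and *Duoxa2* (3.82 FPKM). There *Cyba* and *Noxo1* overlapped, as did *Duox2* and *Nox1*, while *Duoxa2* was below *Nox1* in all samples.

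Ratios of FPKM within a sample showed unequal change between partners. The ratio of *Duoxa2* to *Duox2* was 0.620, 0.670 and 0.766 against 0.205, 0.372 and 0.602. These groups did not overlap, but *Zfp90*ΔIEC replicate 3 was just below the lowest *Zfp90* fl/fl sample. The ratio of *Noxo1* to *Nox1* was 1.77 ± 0.0812 in *Zfp90* fl/fl and 2.33 ± 0.428 in *Zfp90*ΔIEC samples (SD, n = 3 each), and that of *Noxa1* to *Nox1* was 2.37 ± 0.138 against 3.43 ± 0.716 (SD, n = 3 each), both without overlap. *Cyba* to *Nox1* overlapped, at 2.39 ± 0.117 and 2.62 ± 0.406 (SD, n = 3 each). *Duox1* was at 0 in 1 *Zfp90*ΔIEC sample, which leaves ratios with it for 2 samples of that genotype.

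**Figure D3:**
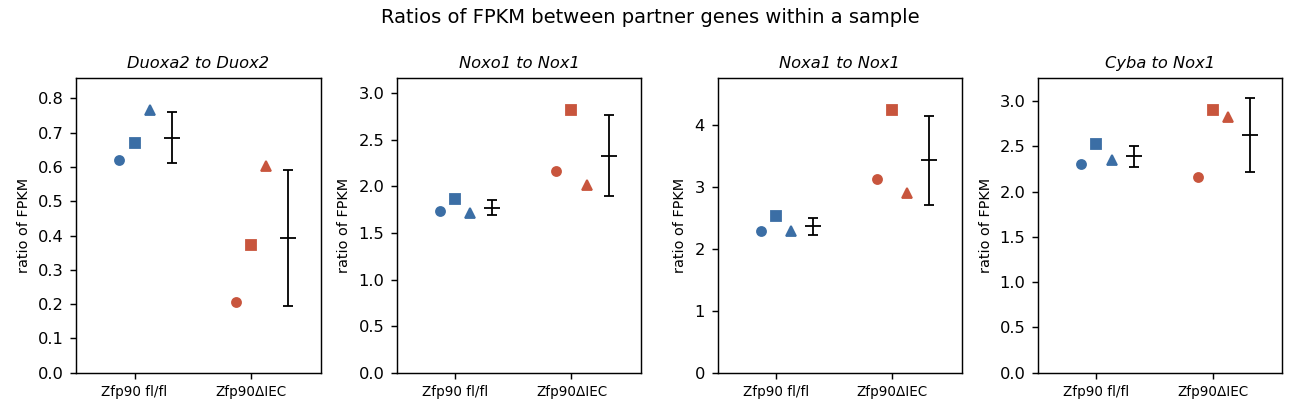
Ratio of FPKM between partner genes in each sample, on axes that start at 0. Circles, squares and triangles are replicates 1, 2 and 3, and the dash with its bar is the mean and SD. *Duoxa2* to *Duox2* is lower and *Noxo1* and *Noxa1* to *Nox1* are higher in *Zfp90*ΔIEC samples, while *Cyba* to *Nox1* overlaps.

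Across the 6 samples, the pattern of *Duox2* on log2(FPKM + 1) had a Pearson r of 0.979 with *Nos2*, 0.958 with *Nox1* and 0.953 with *Duoxa2*. The lowest r of *Duox2* with a member was 0.775, for *Noxa1*. With only 6 samples in 2 genotypes, a gene lower in *Zfp90*ΔIEC samples with little spread within a genotype has a high r. These values are therefore a description. The non-member genes of highest r were *Cop1*, *Rps3a2*, *Ints12*, *Cd14* and *Rps4x* for *Duox2* (0.992 to 0.997), *Vsig1*, *Tle4*, *Xk*, *Gas6* and *Cd177* for *Nox1* (0.995 to 0.998), and *Tcrg-C1*, *Plekha2*, *Rab32*, *Letmd1* and *Ero1l* for *Nos2* (0.990 to 0.999). Their log2 fold changes ran from -0.12 for *Cop1* to -1.30 for *Cd177*.

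Genes that act with these enzymes were taken as 6 lists of 100 genes in all, of which 98 were in the files and 73 were tested. Only *Il1b*, the interleukin 1 beta gene, passed the threshold, at 3.67, 4.19 and 3.08 FPKM against 0.199, 0.508 and 0.537 FPKM (log2 fold change -1.72, limma adjusted p = 0.00823). As for *Nos2*, no *Zfp90*ΔIEC sample reached 1 FPKM, so *Il1b* passed the filter only through the *Zfp90* fl/fl samples. Of the 73, 46 were lower and 27 higher, with a median log2 fold change of -0.061 beside -0.023 for all genes tested. Among the 33 receptors and signal factors, 27 were lower with a median of -0.15, and 15 were lower without overlap, where 12.6% of all genes tested were. None of the 33 passed the threshold in limma, and 13 had an unadjusted p under 0.05, all of them lower. Among all 11564 genes tested, 1694 had an unadjusted p under 0.05 in limma. The lists were chosen with earlier results of these data known, so nothing is read from these counts. *Irf1*, an interferon-responsive transcription factor, was at 32.2, 36.3 and 41.2 FPKM against 19.8, 17.6 and 23.7 FPKM and did not pass (limma adjusted p = 0.0664). *Il4ra*, the receptor chain for interleukin 4, was at 5.76, 7.19 and 7.90 FPKM against 3.52, 4.36 and 4.03 FPKM (limma adjusted p = 0.0834). *Tlr4*, the receptor for lipopolysaccharide, was at 4.72, 1.57 and 5.56 FPKM against 3.52, 3.06 and 0.606 FPKM, which overlapped.

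In the list of enzymes that remove superoxide and peroxide, 0 of 25 tested genes passed in limma and 2 had an unadjusted p under 0.05, with 15 higher and 10 lower. The median was 0.026. Their 3 largest differences were those of *Gpx1*, *Srxn1* and *Gclm*, with limma adjusted p of 0.522, 0.266 and 0.671. For nitric oxide and arginine, 0 of 11 passed and 2 had an unadjusted p under 0.05. *Gch1*, which makes the cofactor of nitric oxide synthases, was at 7.39, 8.42 and 7.99 FPKM against 6.09, 6.68 and 6.95 FPKM (limma adjusted p = 0.210). *Odc1*, which turns ornithine into putrescine, was at 39.7 to 40.1 FPKM against 50.5, 53.0 and 43.9 FPKM (limma adjusted p = 0.165), and *Ddah1*, which breaks down inhibitors of nitric oxide synthases, had a log2 fold change of -0.30. Of the 12 inducing ligands 10 were in the files and 2 were tested, *Il1b* and *Tnf*, the latter with a log2 fold change of 0.11 and overlapping samples. *Il17a*, a T cell cytokine gene, was below the filter at 0.628, 0.826 and 0.787 FPKM against 0.0939, 0.0894 and 0 FPKM, without overlap. Of the other ligands below the filter, *Il1a* was also lower without overlap, and *Il17f*, *Il22*, *Il6*, *Ifng* and *Il4* overlapped. *Il13* was at 0 in every sample. The part of these ligands in the differences of the members was not tested.

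*Lpo*, a lactoperoxidase that uses hydrogen peroxide, was the single heme peroxidase tested, at 9.94, 10.3 and 9.72 FPKM against 22.4, 24.1 and 12.1 FPKM (log2 fold change 0.85, limma adjusted p = 0.177). It passed the threshold without *Zfp90*ΔIEC replicate 3, the sample nearest to the *Zfp90* fl/fl values. In that fit 17 of all genes tested were called, and nothing is read from this pass. *Cybb*, the catalytic subunit of the phagocyte oxidase, was at most 0.231 FPKM in any sample, while its partner *Cyba* was at 20.2 FPKM or more in every sample.

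**Figure D4:**
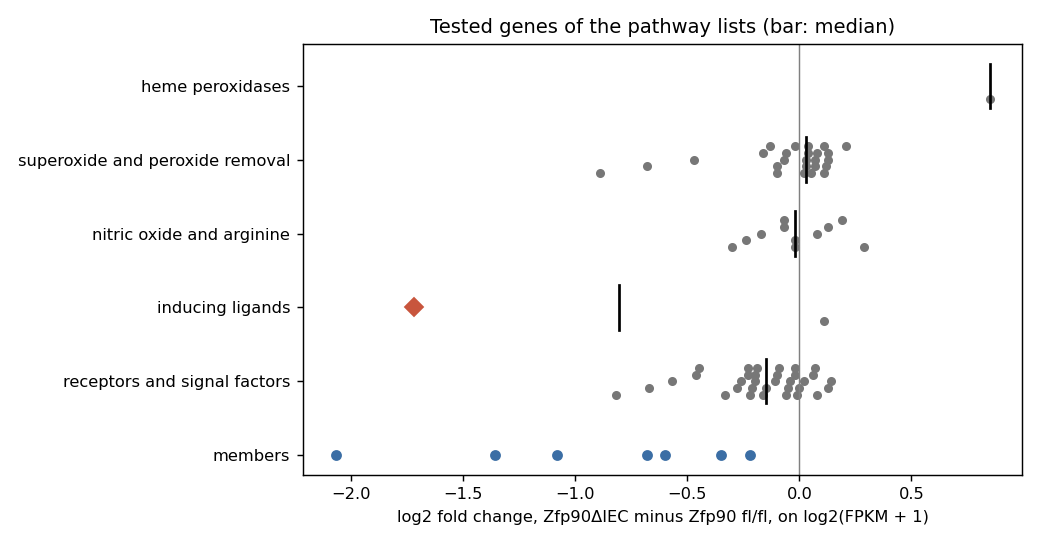
Log2 fold change of the tested genes of 5 lists and of the 7 members, *Zfp90*ΔIEC minus *Zfp90* fl/fl on log2(FPKM + 1). Grey points are genes of the lists that did not pass, the red diamond is *Il1b*, the black bar is the list's median, and blue points are the members. The members lie between -2.07 and -0.22, and the medians of the 3 lists with more than 2 tested genes are 0.026, -0.025 and -0.15.

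Markers of other cells differed between the same samples. The summed level of macrophage markers was 33.1 to 38.6 FPKM in *Zfp90* fl/fl and 17.6 to 19.9 FPKM in *Zfp90*ΔIEC samples, with 10 of 10 lower on average and 7 of 10 without overlap. *Cd14* made up most of it, and without it, a choice made after the values were seen, the sums were 8.38 to 11.3 against 3.40 to 4.74 FPKM. Neutrophil markers summed to 25.3 to 47.2 against 21.9 to 33.0 FPKM with 8 of 10 lower on average. Without *Ly6g*, also chosen after the values were seen, the sums were 1.38 to 2.52 against 0 to 0.0690 FPKM, and *S100a8*, *S100a9* and *Cxcr2* were at 0 in every *Zfp90*ΔIEC sample. *Retnlg* and *Mmp8* were also at 0 there but were above 0 in only 1 *Zfp90* fl/fl sample each, and *Ngp* was at 0 in all 6 samples. Mast cell markers were at 13.6 to 21.1 against 1.41 to 2.30 FPKM with 7 of 7 lower on average and 3 without overlap. *Mcpt1* and *Mcpt2* made up most of the *Zfp90* fl/fl mast cell sum. T cell markers were at 4.80 to 7.62 against 3.29 to 5.19 FPKM with 10 of 10 lower and 3 without overlap. B and plasma cell markers were at 0.685 to 0.999 against 0.123 to 0.263 FPKM with 8 of 8 lower and 3 without overlap. Each of these last markers was below 1 FPKM in every sample. Within the epithelium, surface colonocyte markers were at 5160 to 6910 against 7880 to 11900 FPKM with 6 of 7 higher on average. *Car1* made up most of that sum, at 4030 to 5630 against 6350 to 10100 FPKM. Goblet markers were at 1900 to 2330 against 2530 to 3380 FPKM with 7 of 7 higher. Stem and cycling markers were at 85.8 to 94.2 against 102 to 108 FPKM with 5 of 7 higher. Of these, the cycling genes *Mki67*, *Top2a* and *Pcna* were higher without overlap. The stem genes *Lgr5*, *Ascl2*, *Smoc2* and *Axin2* overlapped. The part of these cells in the differences of the oxidases and of *Nos2* was not tested. When FPKM was divided by the summed epithelial markers, which overlapped between genotypes, 48 of all genes tested were called in place of 23. Among them were 3 members, *Duox2*, *Nos2* and *Duoxa2*, the last at a log2 fold change of -2.03. This scaling does not adjust for the other cells above, so nothing is read from it about them.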

How the data were processed

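RNA-seq of colon epithelium was analysed in 6 samples. Per sample, the authors deposited 1 table of FPKM by gene. The methods name TopHat and Cuffdiff with a human genome, the submitters' processing notes list FastQC, STAR 2.5, Cuffnorm, DESeq 1.22.1 and the build mm9, and the files hold mouse gene identifiers without naming their unit. Identifiers were matched to GENCODE annotation of GRCm38, which also gave positions. Promoters were from RefSeq (GRCm38.p6). FPKM values were transformed to log2(FPKM + 1), and the genotypes were compared over genes that reached 1 FPKM in 3 samples or more with limma 3.58.1 (linear model with an intensity trend, Benjamini-Hochberg adjustment, threshold 0.05) in R 4.3.3. *Duox1*, *Duoxa1* and other genes below the filter took values from the same fit without it. The test was tested on simulated data. Summaries used pandas 2.3.3 and numpy 2.4.6 (Python 3.11.15), and plots used matplotlib 3.10.9. Depth was estimated from steps between low values, of which 58.9% to 65.2% lay within 10% of a whole step, so fragment numbers are approximate.

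The members and lists were chosen with earlier results of these data known. Named were all members, *Zfp90*, and of each list the called genes and the 3 largest absolute log2 fold changes among those tested, with the 5 non-member genes most like *Duox2*, *Nox1* and *Nos2*. Other genes were named after their values were seen. Alternatives were no filter, a pseudocount of 0.1, scaling by epithelial markers, by quantiles or by median ratios, the replicate block, each sample left out and a threshold of 0.01. For 1 list, results are not reported here.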

Additional observations from a re-analysis of the deposited data

How the results depend on the processing

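The log2 fold changes of the members were below 0 in all 86 values computed under the alternatives. The genotypes did not overlap for these members, so leaving a sample out or changing the pseudocount could not turn a sign. The fits with no filter and with the replicate block repeated the log2 fold changes given above. Nothing is read from the shared sign. From 23 genes called, the number was 15 with no filter, 13 with a pseudocount of 0.1, 48 with epithelial marker scaling, 47 with the replicate block and 6 at a threshold of 0.01, and 10 to 21 when each sample was left out. From 2 members called, the number was 0 with no filter and at a threshold of 0.01, 1 with a pseudocount of 0.1 and with quantile normalization, and 3 with epithelial marker scaling and with the replicate block. It was 0 to 3 when each sample was left out, with *Nos2* in none of these fits, *Duoxa2* and *Cyba* added without *Zfp90*ΔIEC replicate 3, and *Nox1* added without *Zfp90*ΔIEC replicate 2. Fewer samples and, with no filter, more genes tested change the adjustment. Of the pathway lists, 1 gene was called, and 2 with epithelial marker scaling and with the replicate block, while 1 to 2 passed when each sample was left out. Same-numbered samples deviated together with a correlation across genes of 0.194, 0.110 and 0.078, so that the third pair fell short of 0.1 and the numbers are not taken to pair the samples. The replicate block added *Duoxa2* to the 2 members called, and every sample correlated best with its own number, a hint from the data only. The sum of epithelial markers was lower and their mean of log2(FPKM + 1) was higher in *Zfp90*ΔIEC samples, by 0.01. Depth limits *Duox1*, *Duoxa1* and the immune cell markers at similar levels, where a listed 0 may be a low level.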

Other observations

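Several genes of the lists departed in 1 sample, named after their values were seen. *Gpx1*, a glutathione peroxidase, was at 128, 134 and 143 FPKM in *Zfp90* fl/fl mice against 121, 25.5 and 121 FPKM in *Zfp90*ΔIEC mice, replicates 1 to 3 in order. *Gclm*, the modifier subunit of glutamate-cysteine ligase, was at 10.1, 11.9 and 10.9 FPKM against 13.1, 10.6 and 2.98 FPKM in the same order. In both genes the other *Zfp90*ΔIEC samples lay near the *Zfp90* fl/fl values.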
